A study of Mus musculus with 2 samples.

Results

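Proteins that condense chromosomes, attach them to the spindle, time their separation and divide the cell are encoded by the 46 genes described here, which were chosen by name as a set of mitotic spindle, kinetochore and condensin genes. All 46 were found by symbol among the 43346 genes of the files, and in the transcript files as well. They were measured by total RNA sequencing of facial prominences, the swellings from which the face forms, dissected from healthy B6NCrl mice at embryonic day 11.5. There was 1 group of 2 libraries, with no treatment or genetic change: prominences of 109 embryos were pooled for library 1 and those of 88 for library 2. Each pool mixed males and females, and each library was made from 10 ng of RNA over 200 nt with spike-in RNA added. The 2 libraries are labelled biological replicates, and the labels give both pools the same donor record. With 1 group no comparison of conditions exists, so the values below are levels, ratios between the libraries and transcript shares, without p-values.

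A dividing cell enters mitosis when cyclin B activates the kinase Cdk1, and chromosomes are then compacted by condensin and topoisomerase II. Kinetochores built on centromeres bind spindle microtubules, and the spindle checkpoint holds the anaphase-promoting complex inactive until every kinetochore is attached. Many of these genes are transcribed late in the cell cycle, through promoters that often carry CCAAT boxes and a cell cycle homology region (CHR), so in a tissue of mixed cells their RNA comes mostly from cells in or near division.

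Sequencing depth was 30849058 expected counts in library 1 and 31600302 in library 2, and 0.907% and 0.977% of the counts on genes fell on the 46 genes. Marker lists for facial mesenchyme, surface epithelium and endothelium were detected in full in both libraries, as were those for neurons and erythroid cells, and 7 of 8 skeletal muscle markers were, with no marker at 0. The mesenchymal markers had a median of 116 TPM (the deposited abundance, scaled for transcript length and library size), with Col3a1 and Msx1 highest. The libraries were not alike in all of these: the 8 neuronal markers summed to 657 TPM in library 1 and 540.2 TPM in library 2, the 8 muscle markers to 115 and 184 TPM, and the 8 erythroid markers to 17036 and 15487 TPM. The 8 endothelial markers summed to 214 and 185 TPM, the 8 epithelial markers to 248 and 219 TPM and the 8 mesenchymal markers to 1295 and 1228 TPM, so of these lists only that of muscle had a higher sum in library 2.

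Promoter sequences are shown first because 2 motifs were frequent in them, a feature that lies outside the measured values. RefSeq promoters of assembly GRCm38.p6, from 250 bases before to 50 bases after the start, were matched by symbol for 40 of the 46 genes, as 43 promoters. The letters of the CCAAT box (CCAAT, or ATTGG on the other strand) were present in 72.1% of these 43 promoters and in 38.2% of 21262 promoters of protein-coding genes. The CHR (TTTGAA or TTCGAA, or TTCAAA on the other strand) was present in 76.7% against 17.6%, and both motifs together in 67.4% against 7.11%. Of the CHR matches in the 43 promoters, 66.7% lay within 50 bases of the start, compared with 22.4% of the CHR matches in all promoters. No match to one motif overlapped a match to the other in the sequences printed here. A match is a description of the sequence, and no match says only that these letters are not in the window.

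The bases before the start are printed for 6 genes, 5′ to 3′ on the strand of the gene, with matches to either motif in capitals and with any bases that GENCODE M21 places inside the gene left out. Cdk1 and Top2a are shown as genes near the top of the range of levels, Cdc20 as the only gene whose ratio between the libraries had an interval below 1, Kif11 and Mki67 as further genes with both motifs, and Birc5 as a highly expressed gene with neither in its window. The regions are chr10:69352939-69353062 (minus strand) for Cdk1, chr11:99024190-99024339 (minus) for Top2a, chr4:118437353-118437493 (minus) for Cdc20, chr19:37376232-37376381 (plus) for Kif11, chr7:135716380-135716529 (minus) for Mki67 and chr11:117849087-117849236 (plus) for Birc5.
Cdk1: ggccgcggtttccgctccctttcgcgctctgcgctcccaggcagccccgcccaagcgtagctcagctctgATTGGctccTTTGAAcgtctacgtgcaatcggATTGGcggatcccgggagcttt
Top2a: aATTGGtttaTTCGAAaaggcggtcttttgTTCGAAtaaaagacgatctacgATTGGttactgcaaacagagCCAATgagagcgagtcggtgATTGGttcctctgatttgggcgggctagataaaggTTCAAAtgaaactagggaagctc
Cdc20: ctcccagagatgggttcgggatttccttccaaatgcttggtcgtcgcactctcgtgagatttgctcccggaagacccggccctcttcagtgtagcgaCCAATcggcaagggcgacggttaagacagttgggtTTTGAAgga
Kif11: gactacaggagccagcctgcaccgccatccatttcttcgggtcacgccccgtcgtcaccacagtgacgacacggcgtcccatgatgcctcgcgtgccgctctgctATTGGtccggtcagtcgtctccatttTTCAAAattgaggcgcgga
Mki67: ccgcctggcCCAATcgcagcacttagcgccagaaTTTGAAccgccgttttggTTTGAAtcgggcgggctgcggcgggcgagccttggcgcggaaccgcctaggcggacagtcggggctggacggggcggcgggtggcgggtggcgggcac
Birc5: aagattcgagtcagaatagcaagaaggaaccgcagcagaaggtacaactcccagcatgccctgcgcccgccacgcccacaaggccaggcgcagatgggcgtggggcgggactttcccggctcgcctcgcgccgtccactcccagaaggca

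In Top2a, 4 CCAAT words and 3 CHR words lay in the 150 bases shown, and the CHR nearest the start covered bases -23 to -18. The Cdc20 promoter had a CHR at -18 to -13, Kif11 at -19 to -14, and Mki67 had a pair further upstream, the nearer at -98 to -93. Both motifs were found in 26 of the 40 genes and neither in 8. The levels of the 26 ran from 14.0 TPM (Espl1) to 408 TPM (Ube2c) with a median of 102 TPM. The 14 genes without the pair ran from 25.01 TPM (Kif15) to 323 TPM (Birc5) with a median of 74.9 TPM, so the 2 sets overlapped.

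All 46 genes reached the detection level of 1 TPM in each library, compared with 58.5% of 21474 protein-coding genes. Their median level was 96.6 TPM, from 94.7 TPM in library 1 and 100.4 TPM in library 2 (SD 4.06, n = 2). The median of the 12572 detected protein-coding genes was 17.98 TPM, and 31 of the 46 genes stood above 69.9 TPM, the 90th percentile of all protein-coding genes. The level of a transcript in bulk tissue is a product of how many cells hold it and how much each holds, and fewer cells of a type and less RNA per cell cannot be told apart. Between the highest gene, Ube2c, and the lowest, Espl1, the levels differed 29.1-fold. Ordered by mean level, 16 of the 45 neighbouring pairs had library values that did not overlap, and the other 29 pairs could not be ordered beyond the spread of their 2 libraries.

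**Figure D1:**
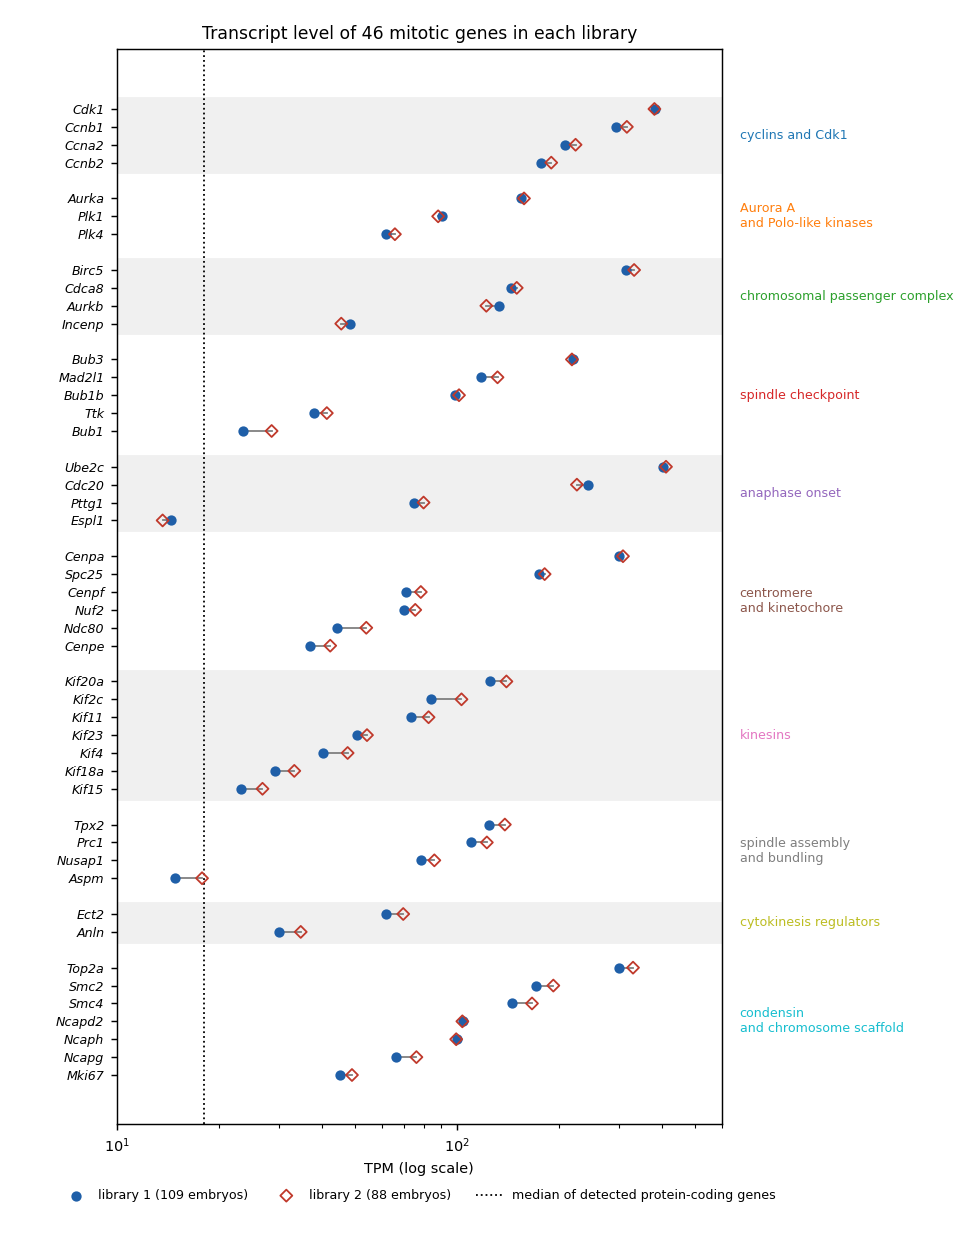
TPM of each gene (log axis) in library 1 (filled circles) and library 2 (open diamonds), grouped by function and ordered by mean level within a group. The dotted line marks 17.98 TPM, the median of detected protein-coding genes, and only Aspm (16.3 TPM) and Espl1 (14.0 TPM) have means below it.

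The cyclins and their kinase formed the group with the highest median, 260.1 TPM. Cdk1, the kinase that drives entry into mitosis, stood at 381.3 and 380.9 TPM in libraries 1 and 2. Cyclin B1 (Ccnb1), its main mitotic partner, stood at 294 and 316 TPM. Both libraries put Ccnb1 above Ccna2 (208 and 223 TPM), the cyclin of S phase and early mitosis, and Ccna2 above Ccnb2 (177 and 189 TPM), the second B-type cyclin, with no overlap between the 3. Ccnb1 was 1.66 ± 0.00589 times as high as Ccnb2 (SD, n = 2). The place of Cdk1 above Ccnb1 did not hold for protein-coding transcripts alone, where Cdk1 was at 221 and 232 TPM and Ccnb1 at 279 and 299 TPM. Processed pseudogene copies took few counts: Ccnb1-ps had 39.0 and 36.0 expected counts and Ccnb2-ps 73 and 66, against 13805 and 15025 on Ccnb1.

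Among the kinases of the centrosome and spindle, Aurora A (Aurka), which matures centrosomes, was highest at 154 and 157 TPM. Plk1, a Polo-like kinase acting at many steps of mitosis, was at 90.5 and 88.0 TPM. Plk4, the kinase that starts centriole duplication, was lowest at 61.9 and 65.7 TPM, and the 3 kinases did not overlap. In the chromosomal passenger complex, which corrects faulty attachments, the subunits were unequal in level. Survivin (Birc5) was at 314 and 332 TPM, Borealin (Cdca8) at 144 and 149.9 TPM, the kinase Aurora B (Aurkb) at 133 and 122 TPM, and the scaffold Incenp at 48.4 and 45.7 TPM. Every library thus gave the order Birc5, Cdca8, Aurkb, Incenp by TPM. The ratio of Birc5 to Incenp was 6.88 ± 0.547 (SD, n = 2) by TPM and 1.86 ± 0.150 when counts were divided by the longest annotated transcript, since the 3334-nt Birc5 transcript held 3.59% and 3.79% of the reads of the gene and the 947-nt Birc5-201 held 96.4% and 96.2%. By that second measure Aurkb stood above Birc5 and Birc5 above Cdca8, and Incenp was again the lowest.

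The 5 checkpoint genes spanned a wide range. Bub3, a protein that brings the Bub kinases to the kinetochore, was at 219.7 and 218 TPM. Mad2l1, which binds and restrains Cdc20, followed at 118 and 132 TPM, and Bub1b (BubR1), a subunit of the mitotic checkpoint complex, at 98.9 and 101.4 TPM. The kinases Ttk (Mps1), at 38.0 and 41.4 TPM, and Bub1, at 23.5 and 28.5 TPM, were lowest. Bub1b was 3.88 ± 0.458 times as high as its relative Bub1, and Bub3 was 2.18 ± 0.0509 times as high as Bub1b (SD, n = 2).

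Genes of anaphase onset held both ends of the whole range by TPM. Ube2c, the ubiquitin-conjugating enzyme of the anaphase-promoting complex, was the highest of the 46 at 404 and 412 TPM. Cdc20, the activator of that complex and the target of the checkpoint, was at 242 and 225 TPM, which was 1.89 ± 0.246 times Mad2l1. By counts per kilobase of the longest transcript Ube2c was 0.765 ± 0.0429 times Cdc20, compared with 1.75 ± 0.115 by TPM. Securin (Pttg1), the inhibitor of separase, was at 74.7 and 79.8 TPM. Separase itself (Espl1), the protease that opens cohesin, was the lowest of the 46 at 14.4 and 13.6 TPM. Pttg1 exceeded Espl1 5.51 ± 0.487 fold by TPM, though only 964 and 1044 counts lay behind Pttg1 against 1935 and 1856 behind Espl1, whose transcript is longer.

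Among centromere and kinetochore genes, Cenpa, the histone H3 variant that marks the centromere, was highest by gene TPM at 299 and 308 TPM. That place did not hold for protein-coding transcripts alone, where Cenpa was at 107 and 116 TPM and Spc25 at 167 and 173 TPM. Spc25, Nuf2 and Ndc80 encode 3 of the 4 subunits of the Ndc80 complex, the main microtubule binder of the kinetochore, and stood at 175 and 181, 69.7 and 75.4, and 44.3 and 54.1 TPM. These 3 did not overlap, and the fourth subunit, Spc24, which is not among the 46, was at 74.1 and 73.3 TPM. By counts per kilobase of the longest transcript Nuf2 was 0.799 ± 0.0709 times Ndc80, compared with 1.48 ± 0.127 by TPM, so the order of these 2 subunits depends on which transcript length is used. Cenpf, a large protein of the outer kinetochore, was at 70.7 and 78.3 TPM, overlapping Nuf2, and the motor Cenpe, which moves chromosomes to the spindle equator, was lowest of the group at 36.8 and 42.4 TPM.

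The 7 kinesins had a median of 52.5 TPM. Kif20a, a motor of the central spindle, was highest at 125 and 140 TPM, and Kif2c (MCAK), which depolymerises microtubules at centromeres, followed at 83.9 and 103 TPM. Kif11 (Eg5), which pushes spindle poles apart, was at 73.5 and 82.5 TPM, and Kif15, which can share that task, was lowest at 23.2 and 26.8 TPM. Kif23, a subunit of centralspindlin, was at 50.7 and 54.4 TPM, the chromokinesin Kif4 at 40.4 and 47.7 TPM, and Kif18a, which dampens chromosome oscillation, at 29.2 and 33.2 TPM. Every kinesin was higher in library 2, and none of the 7 overlapped its neighbour in the order. By TPM Kif20a was 5.21 ± 0.213 times as high as its paralog Kif20b, and Kif18a was 5.70 ± 0.390 times as high as Kif18b (SD, n = 2). By counts per kilobase of the longest transcript these ratios were 5.15 ± 0.210 and 3.12 ± 0.0111. Neither paralog is among the 46.

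Of the genes of spindle assembly and bundling, Tpx2, which promotes microtubule growth near chromosomes, was at 124 and 138 TPM, and Prc1, which bundles the central spindle, at 109.7 and 122 TPM. Nusap1, a microtubule-binding protein of the spindle, was at 78.6 and 85.8 TPM, and Aspm, a spindle pole protein with a role in brain size, at 14.9 and 17.8 TPM. Of the 2 cytokinesis regulators, Ect2, which activates RhoA at the division plane, was at 61.8 and 69.5 TPM, and Anln (anillin), a scaffold of the contractile ring, at 30.1 and 34.7 TPM. Mki67, the coat of mitotic chromosomes widely used as a proliferation marker, was at 45.4 and 49.1 TPM. Its 9292 and 10225 counts were more than the 7195.5 and 7490.2 of Ube2c, the gene with the highest TPM, and lay on a transcript of 10075 nt. Across the 46 genes level and longest transcript length had a Spearman correlation of -0.52 (n = 46 genes of the same 2 libraries, given as a description).

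Condensin I compacts chromosomes with a pair of ATPase subunits, Smc2 and Smc4, a kleisin, Ncaph, and the HEAT-repeat subunits Ncapd2 and Ncapg. By TPM of the gene, Smc2 (170.2 and 192 TPM) and Smc4 (146 and 166 TPM) stood above Ncapd2 (104.3 and 103.7 TPM), Ncaph (100.01 and 99.5 TPM) and Ncapg (66.2 and 76.0 TPM). When protein-coding transcripts alone were summed, the order became Ncaph (93.4 and 95.6 TPM), Smc4 (87.9 and 88.1 TPM), Smc2 (61.7 and 71.2 TPM), Ncapg (60.6 and 68.7 TPM) and Ncapd2 (55.3 and 53.8 TPM), with Smc2 and Ncapg overlapping. Smc2 was 1.82 ± 0.162 times Ncaph by TPM, 0.703 ± 0.0597 times by coding TPM and 0.618 ± 0.0706 times by counts per kilobase of the longest transcript (SD, n = 2). With coding transcripts alone the median of this group of 7, which also holds Top2a and Mki67, moved from 104 to 66.5 TPM. Top2a, the topoisomerase that untangles sister chromatids, was at 299 and 330 TPM, or 203 and 233 TPM from its coding transcript alone. Of the subunits particular to condensin II, Ncapd3 was at 20.1 and 22.96 TPM and Ncapg2 at 16.6 and 19.2 TPM, below their condensin I counterparts by 2.55 ± 0.287 fold and 3.62 ± 0.0507 fold in coding TPM, whereas Ncaph2 was at 116 and 124 TPM, above Ncaph by gene TPM and below it by coding TPM (79.9 and 80.3).

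**Figure D2:**
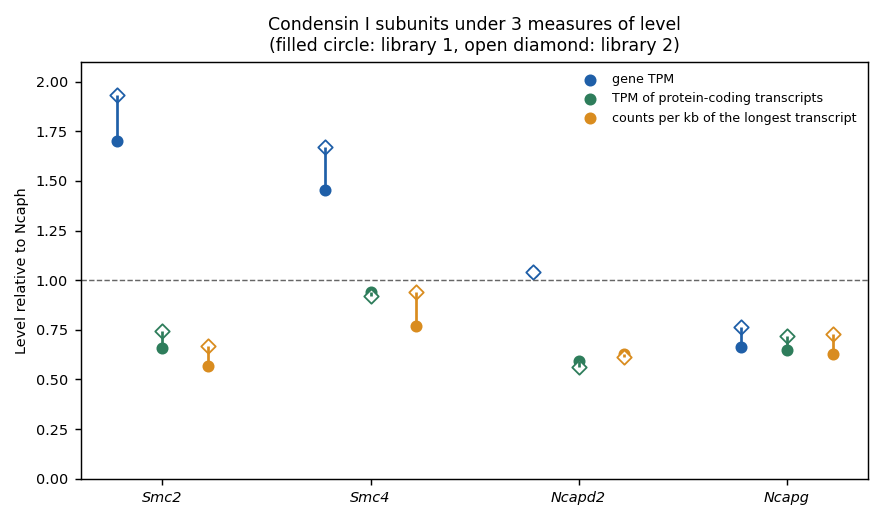
Level of each condensin I subunit relative to Ncaph (dashed line at 1) in library 1 (filled circles) and library 2 (open diamonds), by gene TPM, by TPM of protein-coding transcripts and by counts per kilobase of the longest transcript. Smc2 lies above Ncaph by gene TPM (1.70 and 1.93) and below it by the other measures (0.569 to 0.745).

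The transcript files show which transcripts lie behind that change of order. RSEM's isoform percentage (IsoPct) is the share of a gene's TPM assigned to a transcript, and TPM gives a short transcript more weight per read than a long one. For Smc2 the leading transcript in both libraries was Smc2-203, a 643-nt processed transcript with no coding sequence in the annotation, with an IsoPct of 48.0% and 46.5%. It held 15.4% and 14.4% of the reads of the gene, while the full-length coding Smc2-201 (5404 nt) held 64.7% and 66.5% of the reads and an IsoPct of 20.7% and 22.1%. Ncapd2 had a like pattern: the 894-nt retained-intron transcript Ncapd2-206 took an IsoPct of 25.5% and 28.9% from 7.75% and 8.95% of the reads. Smc4 went the other way, since Smc4-207, a 4057-nt transcript annotated for nonsense-mediated decay, held 62.1% and 68.3% of the reads but an IsoPct of 33.6% and 39.4%. The annotated full-length coding transcript Smc4-201 held 7.43% and 7.35% of the reads, and the 1163-nt coding Smc4-206 led by IsoPct at 55.8% and 49.0%.

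Cenpa and Cdk1 also had large non-coding shares, and in Top2a processed transcripts made up 32.1% and 29.3% of the TPM but 6.22% and 5.55% of the reads. The leading Cenpa transcript was Cenpa-202, annotated for nonsense-mediated decay, with an IsoPct of 44.9% and 42.9%, ahead of the coding Cenpa-205 with 34.9% and 37.0%. Summed over coding transcripts, Cenpa was at 107 and 116 TPM, compared with 299 and 308 TPM for the gene. In Cdk1, coding transcripts made up 58.04% and 60.9% of the TPM but 83.5% and 85.2% of the reads, and the 378-nt retained-intron transcript Cdk1-203 had an IsoPct of 22.7% and 22.5%.

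**Figure D3:**
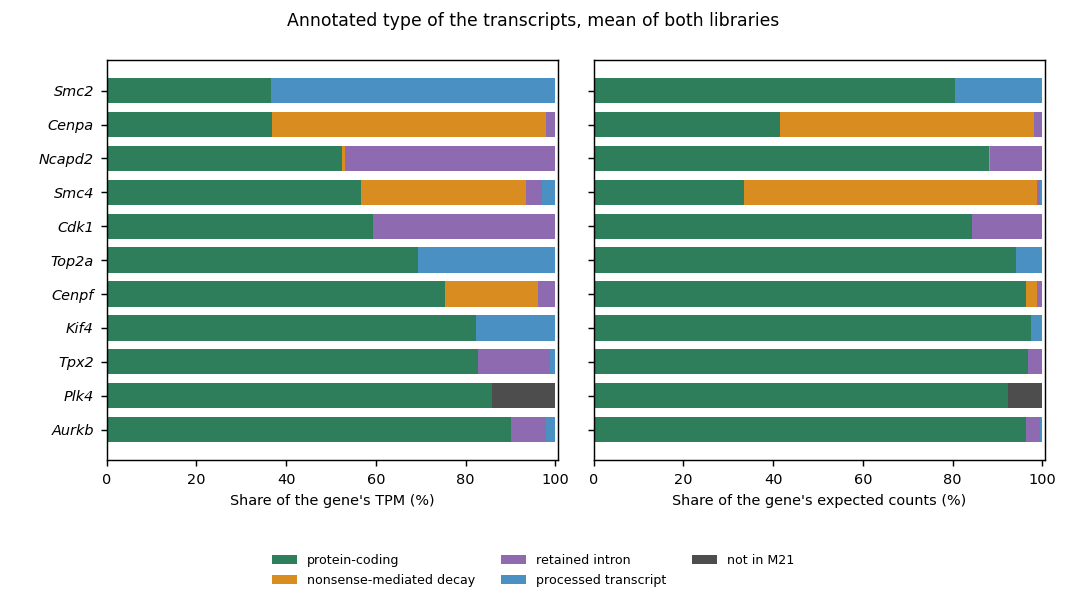
Share of each gene's TPM (left) and expected counts (right) by annotated transcript type, as the mean of both libraries, for the 11 genes in which coding transcripts did not reach 90% of TPM in both libraries. In both libraries Smc2, Cenpa and Ncapd2 are under 60% coding by TPM, and Cenpa and Smc4 by counts. By TPM, Smc4 (60.35% and 52.98%) and Cdk1 (58.04% and 60.89%) are under 60% in a single library.

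Apart from Kif20a, described below, 5 further genes had a pair of coding transcripts that each took at least 20% of the TPM in both libraries. For Cenpf the 3001-nt Cenpf-203 had an IsoPct of 48.5% and 53.1% from 32.6% and 35.1% of the reads, ahead of the 11130-nt Cenpf-204 with 24.9% and 24.4% from 63.6% and 61.5% of the reads. Mad2l1-202 and Mad2l1-201 had an IsoPct of 63.8% and 59.6% and of 30.4% and 36.8%. The second transcripts of the other 3 genes, Spc25-202 (24.7% and 24.8%), Ect2-203 (35.3% and 35.6%) and Prc1-202 (26.3% and 27.6%), had similar shares in both libraries.

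The 46 genes had 223 transcripts in the files, and 13 genes had only 1. The transcript with the largest IsoPct was the same in both libraries in 44 genes and was protein-coding in both in 44. Among the 33 genes with at least 2 transcripts these counts were 31 and 31, compared with 93.7% and 91.0% of 6103 protein-coding genes with at least 2 transcripts and 10 TPM. Coding transcripts reached 90% of TPM in both libraries in 22 of these 33 genes, and in 57.1% of the 6103. The leading transcript differed between the libraries in Kif20a and Pttg1. The Kif20a pair, 3567 and 3565 nt long, had an IsoPct of 49.4% and 59.6% for Kif20a-201 and 50.6% and 40.4% for Kif20a-202. The posterior SD of those counts was 521 of 4387 and 536 of 6035 for Kif20a-201, so the 2 transcripts were hard to separate by reads, whereas the largest posterior SD of any gene count was 0.285%. For Pttg1, Pttg1-203 had an IsoPct of 15.3% and 51.0% on 141 and 511 counts with posterior SDs of 78.9 and 115.

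Ratios between the libraries were taken as TMM-scaled expected counts of library 2 over library 1, each with an exact 95% interval (Clopper-Pearson, on how the summed counts divided between the libraries). Reads are not independent molecules, so these intervals cover counting error only. The 46 genes had a median ratio of 1.10, or 0.14 on the log2 scale, and 40 ratios were above 1. Among genes with at least 2000 counts the share above 1 differed by GC content, the share of G and C bases in the transcript. It was 88.2% under 40% GC, 85.6% at 40 to 45% and 71.0% at 45 to 50%. At 50 to 55% it was 45.6%, and at 55% GC or more 23.8%. In the same classes 4 of 4, 16 of 16, 12 of 12, 8 of 11 and 0 of 3 of the 46 genes had ratios above 1. The median log2 ratio was 0.00 over all 16671 genes with at least 20 counts and 0.03 over the 6291 with at least 2000, a level of counts that all 46 genes reached. The interval lay above 1 for 36 of the 46 genes (78.3%), against 21.2% of all genes tested and 35.8% of those with at least 2000 counts. It lay below 1 for 1 gene, Cdc20, against 18.7% and 18.6%. A ratio of at least 1.2 was found in 6 genes (13.0%), against 12.6% of all genes tested and 3.40% of those with at least 2000 counts, and a ratio as far below 1 in none, against 16.8% and 1.64%. The common dispersion that edgeR fitted to 15986 genes put the spread between the pools at a coefficient of variation of 9.79%, which corresponds to an SD of 0.20 for a log2 ratio. Most of the 46 ratios were thus larger than counting error. That SD was exceeded by 16 of the 46 genes, and the share of all genes past it was not counted. The dispersion was not fitted to genes with at least 2000 counts alone. The lower and upper quartiles of the log2 ratio over those 6291 genes were -0.05 and 0.11. Of the 46 genes, 30 lay above the upper quartile.

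The 6 genes past 1.2-fold came from 5 functions, and none of them passed when the libraries were scaled by spike-in counts, under which 7 genes had intervals below 1. Bub1 (chr2:127801122-127831865) had 1549 counts in library 1 and 1930 in library 2, a ratio of 1.25 (95% interval 1.17 to 1.34). Ndc80 had 1909 and 2374 counts and a ratio of 1.25 (1.17 to 1.32), and Smc4 had 6388 and 7920 counts and a ratio of 1.24 (1.202 to 1.28). The kinesins Kif2c and Kif4 had ratios of 1.24 (1.19 to 1.29) and 1.23 (1.17 to 1.28), and Aspm had 1.22 (1.16 to 1.28). At the other end Cdc20 (chr4:118432901-118437352) had 8016 and 7708 counts and a ratio of 0.963 (0.934 to 0.994). The ratios of Espl1 (0.961), Incenp (0.963), Aurkb (0.966), Plk1 (0.992) and Ncapd2 (0.995) had intervals that held 1.

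By function, against 21.2% of all genes tested and 35.8% of those with at least 2000 counts, all 7 kinesins (median ratio 1.17), all 6 centromere and kinetochore genes (1.12), all 4 spindle assembly genes (1.14), all 4 genes of the cyclin group (1.09) and both cytokinesis regulators (1.15) had intervals above 1. So did 4 of the 5 checkpoint genes (1.12) and 2 of the 3 Aurora A and Polo-like kinases (1.05). Of the 4 passenger complex genes only Birc5 did, with a group median of 1.00, and of the 4 anaphase genes only Ube2c did, with a group median of 1.00. The condensin subunits split: Smc2 (1.195), Smc4 (1.24) and Ncapg (1.18) were higher in library 2, while the intervals of Ncaph (1.02) and Ncapd2 (0.995) held 1. The differences between functions were not tested.

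**Figure D4:**
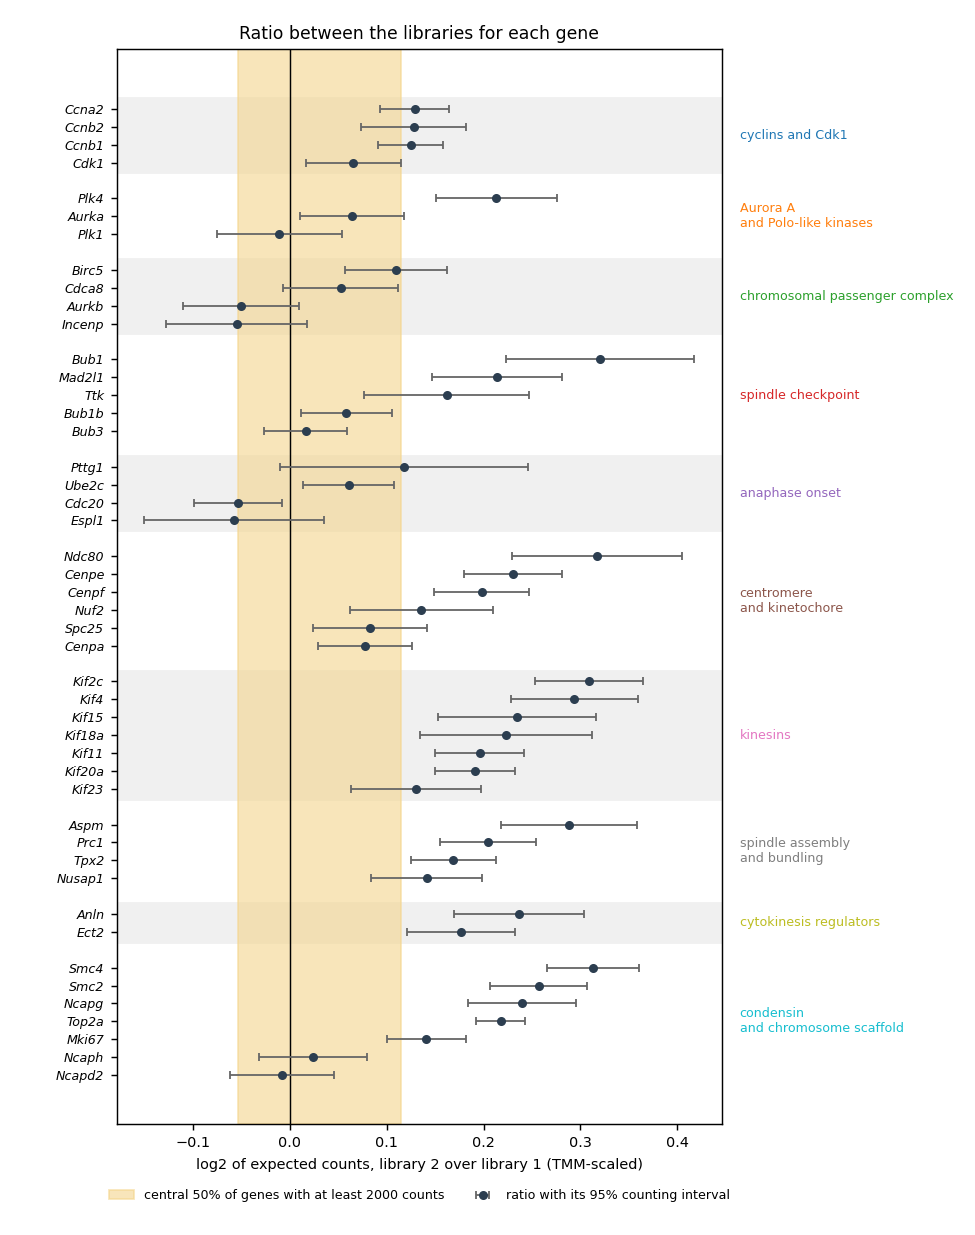
Log2 ratio of library 2 over library 1 for each gene, with its 95% counting interval, grouped by function. The shaded band, from -0.05 to 0.11, holds the central 50% of the 6291 genes with at least 2000 counts, and 30 of the 46 genes lie to its right.

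The ratios moved with the base composition of the transcripts. Across the 46 genes the log2 ratio and the GC content of the transcript with most reads had a Pearson correlation of -0.76 and a Spearman correlation of -0.75 (n = 46 genes of the same library pair, as a description). Over 6286 genes with at least 2000 counts the same correlations were -0.46 and -0.55. The 4 genes under 40% GC (Kif18a, Ncapg, Smc2, Smc4) had a median log2 ratio of 0.25, against 0.15 for all 338 such genes. The 3 genes at 55% or more (Espl1, Cdc20, Plk1) had a median of -0.05, against -0.07 for 1152 genes. The functions with ratios near 1 were also those of high GC, with a median of 52.7% for the passenger complex and 53.5% for anaphase onset, compared with 43.1% for centromere and kinetochore genes. After the trend of the log2 ratio on GC over all genes was subtracted, a step chosen after these values were seen, the median of the 46 genes was 0.10, against 0.02 for genes with at least 2000 counts. Above the trend lay 43 of 46, while the share of all genes above it was not counted. Only Kif2c (0.31) and Kif4 (0.27) then remained past 1.2-fold, and Cdc20 no longer had an interval below 1. The shares of all genes past these bounds after this step were not counted either. The part that base composition or the amounts of other cell types (the neuronal and muscle marker sums above) have in the ratios was not tested.

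**Figure D5:**
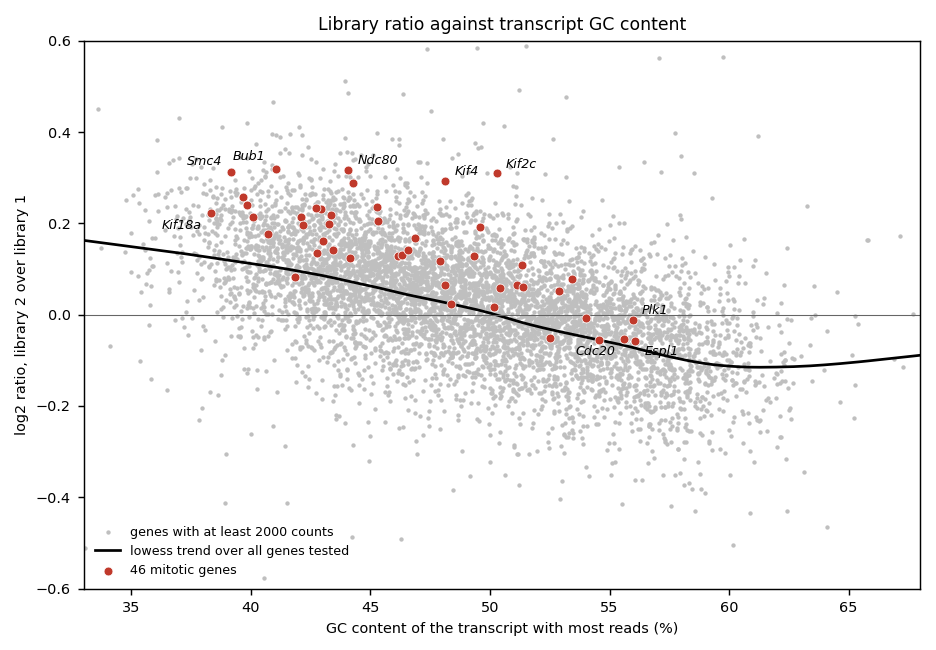
Log2 ratio of library 2 over library 1 against the GC content of the transcript with most reads, for genes with at least 2000 counts (grey, with 23 of 6286 outside the axes) and the 46 genes (red). The black line is the lowess trend over all genes tested. Of the 46 genes, 43 lie above it, and the share of all genes above it was not counted.

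Exons of 11 of the 46 genes share bases with a gene on the opposite strand. Whether the reads kept strand is not stated in the material used here, and without strand the reads of such a pair cannot be told apart where they overlap, so these levels carry that limit. The largest shared stretches were 1271 bases between Kif20a and Cdc23 (124 and 128 TPM), 944 between Ncapg and Lcorl, 911 between Prc1 and Rccd1 and 832 between Kif4 and Pdzd11 (98.9 and 99.8 TPM). Ube2c shares 592 bases with the muscle gene Tnnc2, which was at 3.29 and 8.44 TPM.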

How the data were processed

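Total RNA sequencing of 2 libraries was used, each from 1 pool of embryos. Per the file headers, the authors deposited expected counts, TPM and, for transcripts, the isoform percentage in percent, in columns named as RSEM writes them. Per the submitters' processing notes the models were GENCODE M4 on mm10, and versions of the aligner and quantifier are not given in the sources used here. GENCODE M21, also on mm10, supplied gene symbols, transcript types and positions through the unversioned identifiers.

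Detection meant 1 TPM in both libraries. Library ratios were formed from expected counts after TMM scaling with edgeR 4.0.16 in R 4.3.3, for genes with at least 20 counts over both libraries. The ratio and its 95% interval were tested on simulated data. The simulated counts held counting error alone, so the test does not cover the spread between the pools. Lowess (statsmodels 0.14.6, fraction 0.3) gave the GC trend. The alternatives included DESeq2 1.42.0 size factors. Every gene of the set is described, paralogs and pseudogenes only beside their relative, and of other lists at most the 2 highest and 2 lowest genes. Named transcripts lead in a library or have an IsoPct of at least 20 in both. Leading coding transcripts with no further transcript at that share are given as counts, and Smc4-201, the long Birc5 transcript, the genes with overlapping exons and Spc24 were added after their values were seen. The GC trend, the background of genes with at least 2000 counts, counts per kilobase of the longest transcript and the 60% and 90% bounds on coding share were also chosen after seeing the data. The genes, lists, pairs and motifs were chosen with earlier results of these data known.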

Additional observations from a re-analysis of the deposited data

How the results depend on the processing

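Only 2 libraries exist, so no ratio could be recomputed with 1 left out, no paired analysis was possible because there is 1 group, and depth limits the precision of Pttg1 most. All 46 genes were detected at 10 TPM too, and with 1 library left out the median level was 94.7 to 100.4 TPM. Rescaling TPM over annotated genes alone raised every median: 114 TPM for all 46 (from 96.6), 308 for cyclins and Cdk1, 106 for Aurora A and Polo-like kinases, 162 for the passenger complex, 119 for the checkpoint, 184 for anaphase onset, 87.1 for centromere and kinetochore, 62.2 for kinesins, 117 for spindle assembly, 58.1 for cytokinesis and 123 for condensin and scaffold. Protein-coding transcripts alone gave 85.1 for all 46, 219 for cyclins and Cdk1, 127 for the passenger complex, 97.3 for the checkpoint, 149 for anaphase onset, 64.3 for centromere and kinetochore and 66.5 for condensin and scaffold. Posterior mean TPM gave 86.8 for Aurora A and Polo-like kinases, 135 for the passenger complex and 98.3 for the checkpoint. Scaling by spike-in counts lowered the median log2 ratio from 0.14 to 0.0767, left 0 genes 1.2-fold higher in library 2 (from 6) and put 7 intervals below 1 (from 1), and scaling by total gene counts put 4 below 1. Subtracting the GC trend, chosen after seeing the data, left 2 genes past 1.2-fold and 0 intervals below 1. At 1.5-fold 0 genes were past the threshold. Under these scalings, the GC trend and the 1.5-fold bound, the shares of all genes were not counted. The median log2 ratio of the 46 genes kept its sign, and group medians were not recomputed under other scalings of the counts. After the GC trend the group medians of the log2 ratio ran from 0.0448 (passenger complex) and 0.0473 (anaphase onset) to 0.146 (kinesins). With spike-ins the passenger genes were at -0.115 (Aurkb), -0.119 (Incenp), -0.012 (Cdca8) and 0.0453 (Birc5). The anaphase genes were at -0.118 (Cdc20), -0.122 (Espl1), -0.00376 (Ube2c) and 0.0534 (Pttg1). Single log2 ratios did turn: under spike-in scaling Aurka (-0.00036), Bub1b (-0.00589) and Ube2c (-0.00376), whose intervals had lain above 1, and after the GC trend Cdc20 (0.0135) and Spc25 (-0.0139). Counting genes whose interval held 1, 6 turned with spike-ins, 2 (Bub3, Ncaph) with gene totals, 7 after the GC trend and 0 with DESeq2 size factors. The cause of these shifts was not tested.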

Other observations

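Other genes of the division machinery were also detected throughout. All 20 DNA replication genes had a median of 144 TPM, with Pcna and Rrm2 highest, and their median library ratio was 1.05, with 10 intervals above 1 and 1 below. Intervals lay above 1 for 21.2% of all genes tested and 35.8% of those with at least 2000 counts, and below 1 for 18.7% and 18.6%. All 16 genes listed for the anaphase-promoting complex, its subunits and some regulators, were detected with a median of 80.6 TPM and a ratio of 1.007, with 6 above 1 and 2 below. The 9 cohesin genes had a median of 44.5 TPM and a ratio of 1.12, with 8 above 1 and 0 below, and the 26 other kinetochore genes had a median of 39.7 TPM and a ratio of 1.07, with 12 above 1 and 2 below. The 32 other genes of mitotic entry, centrosome and midbody had a median of 34.9 TPM and a ratio of 1.11, from Kif18b (5.47 TPM) to Cks1b (497 TPM), with 20 above 1 and 3 below. The 12 regulators of the mitotic programme were lower, with a median of 21.9 TPM and a ratio of 1.007, with 3 above 1 and 3 below.

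Of 9 germline or tissue-restricted relatives, only Stag3 (3.09 and 4.39 TPM) and Rec8 (2.67 and 3.29 TPM), cohesin subunits of meiosis, were detected. Aurkc and Kif2b had 0 counts in both libraries, which allows up to 0.172 and 0.169 TPM for Aurkc and 0.0682 and 0.0670 TPM for Kif2b, at a limit of 3 counts.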
